A study of Mus musculus with 10 samples.

Results

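The TRIM (tripartite motif) family was followed in beta cells sorted from mouse islets after exposure to lipopolysaccharide (LPS). Members were all genes whose symbol is Trim followed by a number and an optional letter. This gave 68 genes of the 56748 gene identifiers in the count tables, and 1 pseudogene with such a name was left out. Of the 68 members, 39 had enough reads to be tested and 29 did not.

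TRIM proteins typically share an amino-terminal RING finger, B-box zinc fingers and a coiled coil, though some lack the RING finger. They differ in the domain at their other end, which often binds the target. Most are E3 ubiquitin ligases, the enzymes that choose which protein is tagged with ubiquitin. Many are known from antiviral defence, where they act on sensors of foreign RNA and DNA and on NF-kB signalling, and part of the family is induced by interferon in immune cells. Others repress chromatin or organise microtubules.

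RNA-seq was done on beta cells taken by flow cytometry from islets of male mice of the NOD strain, 6 to 8 weeks old. These inbred mice become diabetic by autoimmunity without any treatment, and no transgene or deletion is named in the labels for either group. Islets had stayed in culture for 48 hours without treatment (untreated libraries 1 to 5) or with LPS, a bacterial cell wall component sensed by Toll-like receptor 4, at 50 ng/ml (LPS libraries 6 to 10), and were dispersed and sorted only afterwards. The series title asks how LPS leads to production of the chemokine CXCL10 through the interferon-alpha receptor and Toll-like receptor 4. The samples are described as independent, without naming the animals behind each, so p-values measure the spread between these libraries.

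Counts assigned to genes ranged from 18465188 to 27379892 per library. Levels are given as CPM, the counts of a gene relative to all counts of its library, after scaling by the trimmed mean of M values (TMM), and all members together took 0.166% to 0.183% of counts in the 10 libraries. The 8 beta cell markers, insulin genes included, summed to 116735 to 135503 CPM in untreated and 100587 to 132572 CPM in LPS libraries, sums made up mostly of the insulin genes. Of the 8, 2 were called lower, Slc2a2, the glucose transporter, from 372.0 to 204.8 CPM, and Ucn3, a marker of mature beta cells, from 431.2 to 276.9 CPM. Of 12 macrophage markers only 2 had enough reads to be tested, and Ptprc, the pan-leukocyte marker, had 0 counts in all libraries. The summed macrophage markers were 29.2 to 42.1 CPM in untreated and 36.4 to 46.9 CPM in LPS libraries, and of the 2 tested markers Cd68 was called higher (16.8 to 26.8 CPM) while C1qa, with 18.7 and 14.7 CPM, was not called. Among the untested ones, Csf1r had 48 counts over the untreated and 30 over the LPS libraries, and Lyz2 had 14 and 4. C1qb had 5 and 1, and Adgre1 and Fcgr1 had 1 and 0 each. Mrc1 had 3 and 7, Itgam 0 and 3, C1qc 2 and 3, and Tyrobp 0 and 1. The 8 endothelial markers summed to 10.4 to 36.2 CPM in untreated and 9.18 to 12.9 CPM in LPS libraries. Most of the LPS sum was Esam, with a mean of 10.3 CPM in untreated and 8.52 CPM in LPS libraries. Mean levels of all 8 were lower in LPS libraries, and only Kdr was called (3.51 to 0.392 CPM). Flt1 went from 3.28 to 0.467 CPM and Plvap from 3.08 to 0.612 CPM. The 7 ductal markers summed to 616 to 726 CPM and 706 to 839 CPM, with Spp1 and Muc1 called higher. The 4 alpha cell markers summed to 4874 to 14112 CPM in untreated and 4046 to 8807 CPM in LPS libraries. For the 2 delta cell markers the sums were 5829 to 7887 CPM and 4783 to 8723 CPM. They were 216 to 411 CPM and 126 to 557 CPM for 6 acinar markers. For 10 lymphocyte markers they were 2.25 to 3.61 CPM and 1.24 to 2.78 CPM. No alpha, delta, acinar or lymphocyte marker was called. In such bulk samples, fewer cells of a type and less RNA per cell cannot be told apart.

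Interferon acts on many genes through the interferon-stimulated response element (ISRE), searched here on both strands as GAAA, any 2 bases and GAAA, in RefSeq promoters (mouse build GRCm38.p6, 250 bases before to 50 after each gene start). Promoters were found for 53 of the 68 members. An ISRE match lay in 9 of these 53 members, in 10 of their 67 windows (14.9%), against 3.44% of all 32851 promoters of that length. Of these 9 members, 6 belong to the cluster of TRIM genes on chromosome 7. Trim30a has a match in both of its windows. The 30 bases around the match nearest the sequence's start are shown for each window to let the cluster copies be compared, with the match in capitals.
Trim34a: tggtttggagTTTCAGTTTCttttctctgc
Trim5: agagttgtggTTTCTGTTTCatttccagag
Trim12a: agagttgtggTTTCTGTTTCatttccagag
Trim12c: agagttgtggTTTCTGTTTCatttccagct
Trim30a, upstream window: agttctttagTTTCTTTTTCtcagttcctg
Trim30a, downstream window: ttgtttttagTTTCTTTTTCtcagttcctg
Trim30d: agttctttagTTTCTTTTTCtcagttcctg
Trim21: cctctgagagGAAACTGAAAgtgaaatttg
Trim26: ccgcttccgaTTTCACTTTCcttttctcgg
Trim2: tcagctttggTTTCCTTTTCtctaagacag

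Trim5 and Trim12a carry the same 30 bases, and Trim12c shares 28 of 30 with each. The upstream window of Trim30a is the same as that of Trim30d over 30 bases, and its downstream window shares 26 of 30 with it. Trim21 and Trim26 each hold a further match that overlaps the one shown. On chromosome 7 the promoters that hold them lie at chr7:104244207-104244506 (Trim34a, plus strand), chr7:104288057-104288356 (Trim5, minus strand), chr7:104315446-104315745 (Trim12a, minus strand), chr7:104353300-104353599 (Trim12c, minus strand), chr7:104465144-104465443 (Trim30a, minus strand), chr7:104446076-104446375 (Trim30a, minus strand), chr7:104507800-104508099 (Trim30d, minus strand) and chr7:102565433-102565732 (Trim21, minus strand). The others lie at chr17:36836896-36837195 (Trim26, plus strand) and chr3:84212789-84213088 (Trim2, minus strand), all with the sequence given along the gene's strand. These sequences are of the reference strain, not of NOD, and a match is a description of letters, not of a bound site.

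Of the 39 tested members, 1 was called higher after LPS (Trim15) and 0 lower at a Benjamini-Hochberg adjusted p under 0.05 in edgeR's quasi-likelihood test. Over all 15942 tested genes, 3.77% were called, 2.84% higher and 0.928% lower, so the share of members called was near that of all genes. At an unadjusted p under 0.05, 5 members were higher and 4 lower, 9 of 39 against 15.3% of all genes. DESeq2 called 2 members, both higher, of the 5.19% of genes it called. Limma-voom called 2, of which 1 was lower (Trim23), against 6.24% of all genes. With 1 surrogate variable as a covariate edgeR called 3, against 8.37% of all genes. The members' median log2 fold change was 0.0024 against -0.0091 over all tested genes, and 20 of 39 values were above 0, against 47.9% of all genes.

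The 95% interval of the log2 fold change lay within 1.5-fold in either direction for 30 of the 39 tested members, and within 2-fold for 35. The 2 members whose untreated and LPS libraries did not overlap were Trim15 and Trim27, both higher after LPS, where 5.71% of all genes were separated and 3.84% in that direction.

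**Figure D1:**
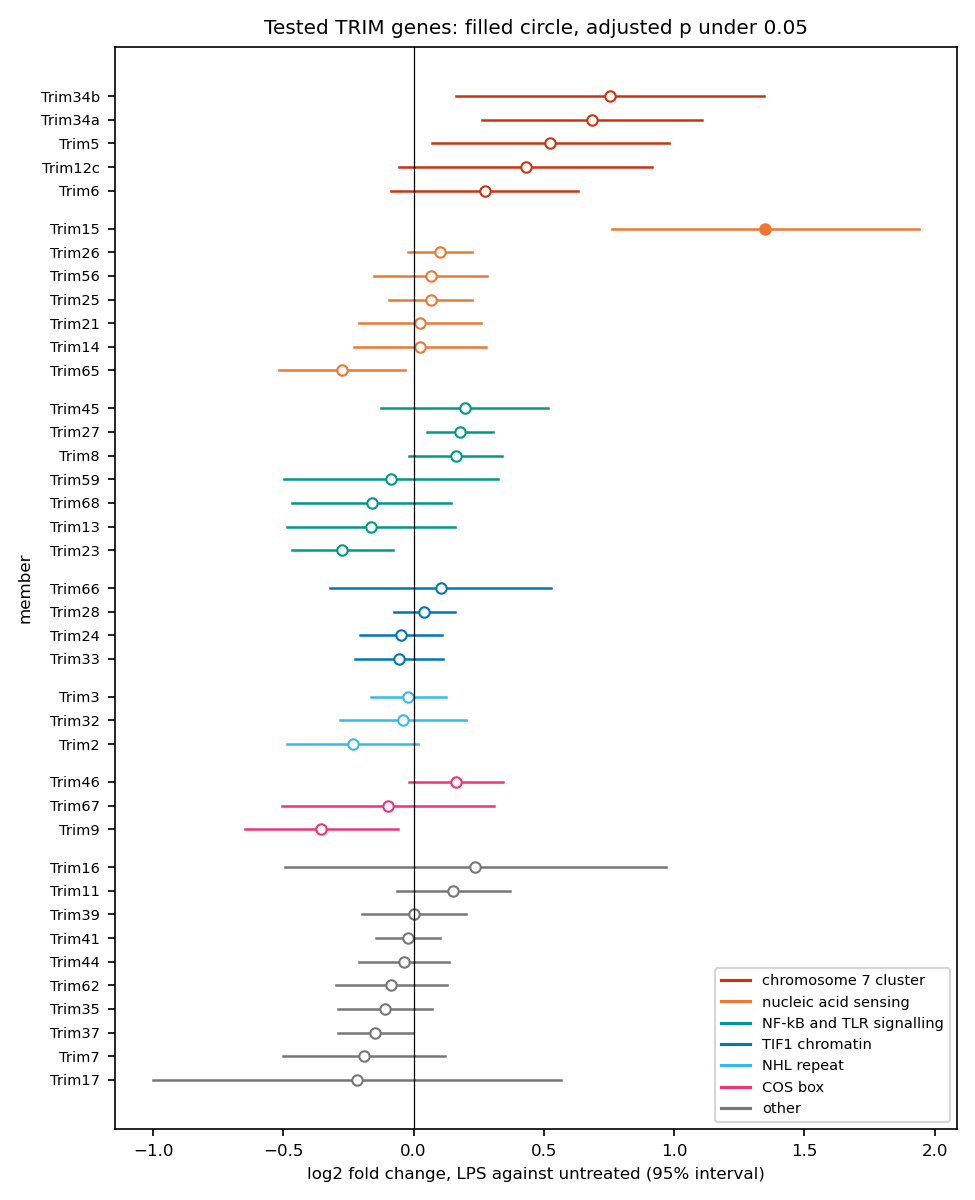
Log2 fold change (LPS over untreated) of the 39 tested members with 95% intervals, grouped by role. Trim15 stands at 1.35 with an interval that starts at 0.76, the 5 members of the chromosome 7 cluster all lie above 0, and most others lie near 0.

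Trim15 (ENSMUSG00000050747), which is known from focal adhesions and from signalling by RNA sensors, rose 2.55-fold from a low level. The untreated libraries 1 to 5 had 0.777, 0.568, 0.634, 1.12 and 0.411 CPM. The LPS libraries 6 to 10 had 1.85, 2.10, 1.28, 1.72 and 1.99 CPM. Each LPS library was above each untreated library, and the closest pair was LPS 8 and untreated 4. Behind these values stood 10 to 26 reads in each untreated and 27 to 58 in each LPS library. Mean levels were 0.702 ± 0.268 CPM in untreated and 1.79 ± 0.316 CPM in LPS libraries (SD, n = 5 each). The log2 fold change was 1.35 ± 0.27 (SE) with an edgeR adjusted p of 0.0128.

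The Trim15 call held in 20 of 21 other settings, with log2 fold changes of 1.21 to 2.02 over all of them. With the mean of the endothelial markers as a covariate the value was 1.32 and the edgeR adjusted p was 0.171, in a fit that called 178 genes of all, where the fit without a covariate called 601. With the macrophage markers as a covariate it was 1.41 (edgeR adjusted p = 0.012). The part of the ductal markers in the result was not tested.

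The Trim15 promoter (RefSeq, chr17:36867138-36867437, minus strand, GRCm38.p6) is shown because this is the member that was called. It holds no ISRE match. The capitals mark its 2 matches to the gamma-activated site motif TTCNNNGAA, which STAT dimers can bind and which lies in 8.30% of all promoters and 10.4% of the members' windows.
Trim15 promoter: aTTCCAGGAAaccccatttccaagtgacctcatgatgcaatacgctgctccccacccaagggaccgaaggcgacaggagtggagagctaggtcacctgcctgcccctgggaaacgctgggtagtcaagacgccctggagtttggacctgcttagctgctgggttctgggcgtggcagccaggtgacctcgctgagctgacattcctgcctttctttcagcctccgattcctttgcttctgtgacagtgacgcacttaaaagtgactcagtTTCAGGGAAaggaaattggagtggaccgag

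A second RefSeq start of Trim15, 23 bases upstream, has a window with 1 of these matches. On chromosome 17, Trim15 lies in the major histocompatibility complex region beside Trim26, Trim10, Trim40 and Trim31. Trim26 was tested and is described below. Of the others, Trim10 had 4 counts over all untreated and 11 over all LPS libraries, Trim40 had 0 and 4, and Trim31 had 1 and 1, too few to test.

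The chromosome 7 cluster holds the mouse relatives of Trim5, a factor known in primates for blocking retroviruses after entry, and the Trim30 genes. Of its 10 members, 5 were tested. All 5 had positive log2 fold changes, with a median of 0.53 against -0.0091 over all tested genes, and edgeR called 0 of them. At an unadjusted p under 0.05, 3 of the 5 were higher, against 15.3% of all genes in either direction. The 3 were Trim34a, its near copy Trim34b, and Trim5. DESeq2 called 1 of the 5 and limma-voom 0, against 5.19% and 6.24% of all genes. The 5 values stayed above 0 in all settings tried. These members share sequence, so their values are not independent of each other.

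Trim34a (ENSMUSG00000056144), a relative of Trim5, had 2.64, 2.68, 4.01, 3.57 and 3.66 CPM in untreated libraries 1 to 5. In LPS libraries 6 to 10 it had 4.59, 5.14, 3.75, 5.70 and 7.42 CPM. LPS 10 was the highest, and LPS 8 lay inside the untreated range, so the groups overlapped. The log2 fold change was 0.69 ± 0.20 (SE) with an edgeR adjusted p of 0.078. It was called by DESeq2 (adjusted p = 0.0186) and by edgeR without LPS 8 (adjusted p = 0.0403). Its adjusted p ran from 0.0186 to 0.553 over 20 other settings, 4 of which called it.

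Trim34b, its near copy, had 1.05, 0.730, 1.39, 2.02 and 1.52 CPM in untreated and 2.49, 2.93, 2.14, 2.26 and 1.49 CPM in LPS libraries. Only LPS 10 lay inside the untreated range. The log2 fold change was 0.75 ± 0.27 (SE), with an edgeR adjusted p of 0.186. Trim34a shares 39.8% of its 50-base stretches with Trim34b, and Trim34b 56.8% of its own with Trim34a, so reads can be split between them or dropped. A further 20.2% of Trim34a's stretches also lie in the antisense gene Gm47248, and the use of strand in counting is not given in the sources used here.

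Summed over Trim34a and Trim34b, levels were 4.66 ± 1.03 CPM in untreated and 7.58 ± 1.14 CPM in LPS libraries (SD, n = 5 each). The untreated sums ran from 3.41 to 5.60 CPM and the LPS sums from 5.89 to 8.91 CPM, with no overlap. The sum rose by 0.71 ± 0.17 (SE) on the log2 scale with an edgeR adjusted p of 0.0328, in a fit that called 3.78% of all genes. This sum was chosen after the values of both genes had been seen.

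The Trim34a promoter (RefSeq, chr7:104244207-104244506, plus strand, GRCm38.p6) is shown as the cluster promoter with an ISRE match and the smallest adjusted p. The capitals mark the match, which starts 10 bases after the gene start.
Trim34a promoter: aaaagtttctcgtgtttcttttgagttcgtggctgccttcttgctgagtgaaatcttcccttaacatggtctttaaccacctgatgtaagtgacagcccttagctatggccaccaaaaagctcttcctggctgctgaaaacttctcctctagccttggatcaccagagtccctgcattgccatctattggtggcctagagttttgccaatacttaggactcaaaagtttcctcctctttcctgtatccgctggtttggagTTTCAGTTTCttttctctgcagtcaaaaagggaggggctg

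Trim5 had 1.44, 1.58, 2.15, 2.41 and 2.59 CPM in untreated and 2.49, 3.00, 2.52, 2.69 and 3.90 CPM in LPS libraries. The groups met between 2.49 and 2.59 CPM. The log2 fold change was 0.53 ± 0.21 (SE) with an edgeR adjusted p of 0.242. Trim12c, a mouse copy related to Trim5, had 2.33, 2.07, 2.20, 1.72 and 1.40 CPM in untreated and 1.61, 2.39, 3.42, 2.58 and 3.11 CPM in LPS libraries, with a log2 fold change of 0.43 (edgeR adjusted p = 0.397). These 2 genes share 23.5% and 24.2% of their 50-base stretches with each other. Summed with Trim12a they went from 3.99 ± 0.287 CPM to 5.54 ± 1.06 CPM (SD, n = 5 each), a log2 difference of 0.48 that was not called (edgeR adjusted p = 0.112).

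Trim6, which builds free ubiquitin chains in interferon signalling, had 4.74, 4.62, 5.11, 3.01 and 4.27 CPM in untreated and 3.95, 5.93, 6.08, 5.21 and 5.10 CPM in LPS libraries. Its groups overlapped, with a log2 fold change of 0.27 and an edgeR adjusted p of 0.495.

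The Trim30 genes, which in macrophages are interferon-inducible, had few or no reads. Trim30a had 0, 0, 1, 8 and 0 counts in untreated and 1, 5, 4, 8 and 11 counts in LPS libraries, too few to pass the filter. In a fit without that filter its log2 fold change was 1.73 ± 0.88 (SE), with an edgeR adjusted p of 0.513. Trim30b and Trim30c had no read in any library, so that their level can be at most 0.0246 CPM in the summed untreated and 0.0269 CPM in the summed LPS libraries, and Trim30d had 1 count in all.

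**Figure D2:**
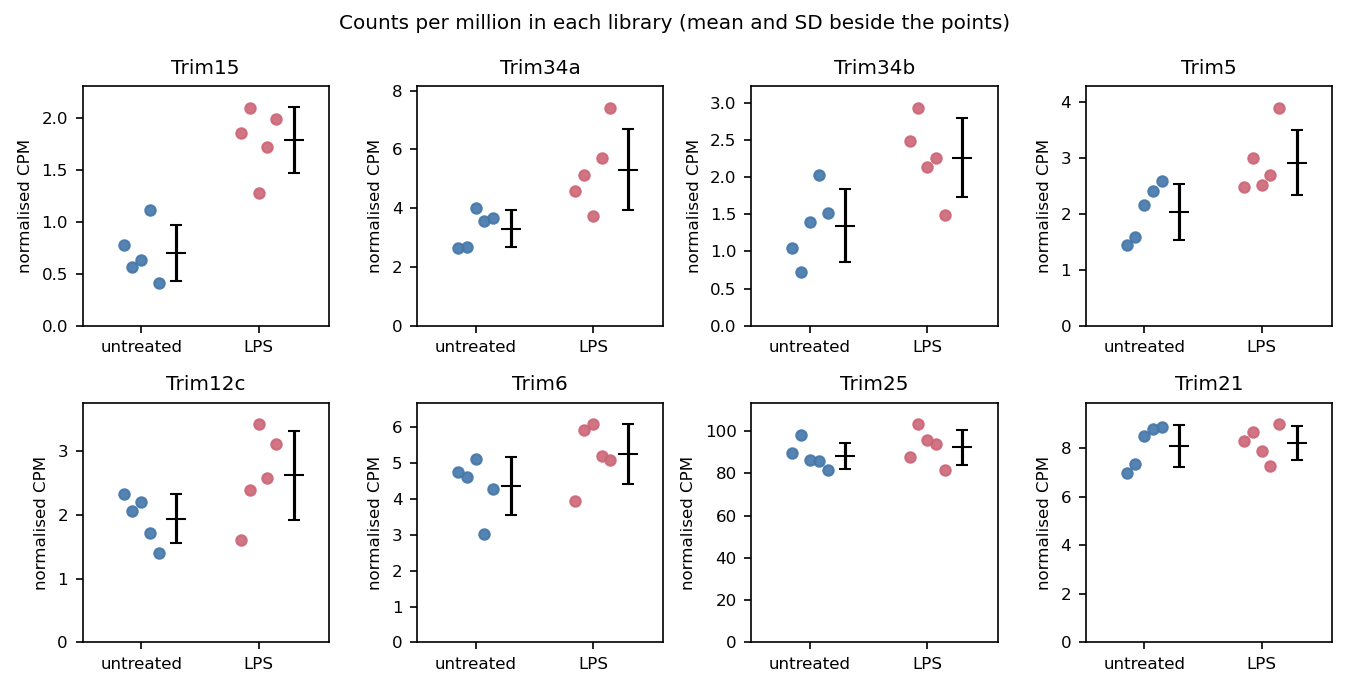
Level in CPM of 8 members in each of the 10 libraries (points), with the mean and SD of each group. Trim15 is separated between untreated and LPS libraries, Trim34a, Trim34b and Trim5 overlap in 1 or a few libraries, and Trim25 and Trim21 lie at like levels in both groups.

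Among members that act on sensors of foreign nucleic acids, 7 of 9 were tested. Of these, 1 was called (Trim15), against 3.77% of all genes, and 6 had intervals within 1.5-fold in either direction. Log2 fold changes were above 0 for 6, against 47.9% of all genes. Trim21 and Trim14, both at 0.02, were among those 6. Trim25, the ligase known for activating the RNA sensor RIG-I, had 88.3 ± 6.29 CPM in untreated and 92.4 ± 8.20 CPM in LPS libraries (SD, n = 5 each). Its log2 fold change was 0.07 with a 95% interval of -0.09 to 0.22 (edgeR adjusted p = 0.756). Trim56, which acts in sensing of cytosolic DNA, had 82.1 and 86.0 CPM, a log2 fold change of 0.07 (edgeR adjusted p = 0.829).

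Trim21, which binds antibodies inside cells and is known as interferon-inducible, had 8.10 ± 0.867 CPM in untreated and 8.22 ± 0.682 CPM in LPS libraries (SD, n = 5 each). Its log2 fold change was 0.02 with an interval of -0.21 to 0.26 (edgeR adjusted p = 0.95), although its promoter holds 2 overlapping ISRE matches. Trim26 also holds 2 such matches and had 79.9 ± 2.85 and 85.7 ± 4.92 CPM, a log2 fold change of 0.10 with an interval of -0.02 to 0.23 (edgeR adjusted p = 0.439). Trim14, an adaptor of the mitochondrial RNA sensing pathway, had 6.52 and 6.63 CPM (edgeR adjusted p = 0.956). Its exons overlap those of Nans on the opposite strand. Trim65, a ligase of the RNA sensor MDA5, went the other way, from 5.98 ± 0.395 to 4.94 ± 0.389 CPM (SD, n = 5 each). Its log2 fold change of -0.27 was not called (edgeR adjusted p = 0.254).

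Over the 9 members with an ISRE match, 6 were tested and edgeR called 0. Of the 6, 5 had a log2 fold change above 0, against 47.9% of all genes. Those 5 were 3 cluster members, which share sequence, with Trim21 and Trim26, and the sixth was Trim2. Trim34b and Trim6 of the cluster, with log2 fold changes of 0.75 and 0.27, have no ISRE match in their windows. For a looser motif, with GAA in place of the closing GAAA, Trim34b has 1 match and Trim6 has 0.

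Members that act on NF-kB and Toll-like receptor signalling numbered 9, of which 7 were tested and edgeR called 0. At an unadjusted p under 0.05, 1 was higher and 1 lower, against 15.3% of all genes in either direction. DESeq2 called 0 and limma-voom 1, against 5.19% and 6.24% of all genes. Trim27, a regulator of NF-kB signalling and of endosomal sorting, had 54.4, 49.9, 51.5, 45.9 and 54.0 CPM in untreated and 58.2, 57.1, 58.4, 57.1 and 58.5 CPM in LPS libraries. All LPS libraries were above all untreated ones, but the step was small, with a log2 fold change of 0.18 ± 0.06 (SE) and an edgeR adjusted p of 0.142. Trim8, which modifies the kinase TAK1 of these pathways, had 47.0 and 52.6 CPM, a log2 fold change of 0.16 (edgeR adjusted p = 0.386).

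Trim23, a ligase with a GTPase domain, had 35.8, 35.8, 34.3, 34.9 and 30.8 CPM in untreated and 32.4, 31.5, 27.2, 27.5 and 23.4 CPM in LPS libraries. The groups overlapped through untreated 5. The log2 fold change was -0.27 ± 0.09 (SE) with an edgeR adjusted p of 0.136. Limma-voom called it lower (-0.29, adjusted p = 0.0282).

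All 4 chromatin members of the TIF1 group had intervals within 1.5-fold, with 0 called by edgeR, DESeq2 or limma-voom, and 0 with an unadjusted p under 0.05. Trim28, the corepressor that zinc finger proteins recruit to silence retroelements, had 163.8 ± 7.77 CPM in untreated and 168.5 ± 5.52 CPM in LPS libraries (SD, n = 5 each), and a log2 fold change of 0.04 with an interval of -0.08 to 0.16. Trim33, which works with SMAD proteins, had 60.3 and 58.0 CPM, a log2 fold change of -0.06.

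Of the members with NHL repeats, 3 of 4 were tested and 0 were called by edgeR, DESeq2 or limma-voom, with 0 at an unadjusted p under 0.05. Trim3, a ligase best known from neurons, had 63.1 and 62.2 CPM, a log2 fold change of -0.02. Trim2, also known from axons, had 26.5 ± 3.94 CPM in untreated and 22.5 ± 2.93 CPM in LPS libraries (SD, n = 5 each), and a log2 fold change of -0.23 (edgeR adjusted p = 0.369).

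Of the microtubule-binding members, 3 of 4 were tested and edgeR called 0. Both other tools also called 0, and 1 member had an unadjusted p under 0.05, against 15.3% of all genes. Trim46, which bundles microtubules at the start of the axon, had 41.3 and 46.2 CPM, a log2 fold change of 0.16 (edgeR adjusted p = 0.389). Trim9, which is known from neuronal exocytosis, had 21.1, 28.0, 23.4, 22.0 and 20.4 CPM in untreated and 13.8, 20.3, 22.7, 14.8 and 18.1 CPM in LPS libraries. LPS 8 lay inside the untreated range and the other LPS libraries below it. Its log2 fold change of -0.35 ± 0.14 (SE) was the lowest of the 39 (edgeR adjusted p = 0.212).

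Of 15 further members found across somatic tissues, 10 were tested and edgeR called 0, with 0 also by DESeq2 and limma-voom. There was 1 at an unadjusted p under 0.05, against 15.3% of all genes. That member was Trim37, a ligase that guards centriole number, with 104.8 ± 4.70 CPM in untreated and 94.7 ± 7.92 CPM in LPS libraries (SD, n = 5 each), and a log2 fold change of -0.15 (edgeR adjusted p = 0.315). Trim44, which lacks a RING finger and carries a zinc finger of ubiquitin proteases, had 243.6 and 237.5 CPM, a log2 fold change of -0.04. Trim35, known for binding pyruvate kinase, had 239.4 and 222.1 CPM, a log2 fold change of -0.11 with an interval of -0.29 to 0.07. The log2 fold changes of the 10 ran from -0.22 to 0.24.

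Levels of different members can be compared only per length of exon. On the scale of CPM per kilobase, Trim35 was highest with 51.8 in untreated and 48.1 in LPS libraries, then Trim44 with 43.2 and 42.1 and Trim28 with 39.4 and 40.5. The means of Trim44 and Trim28 lay close to each other, and the 3 kept this order in both groups. Trim25 stood at 15.3 and 16.1 on this scale, Trim34a at 1.28 and 2.05 and Trim15 at 0.358 and 0.912. The called member was thus among the lowest of the tested members, 35 in order of level of 39.

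**Figure D3:**
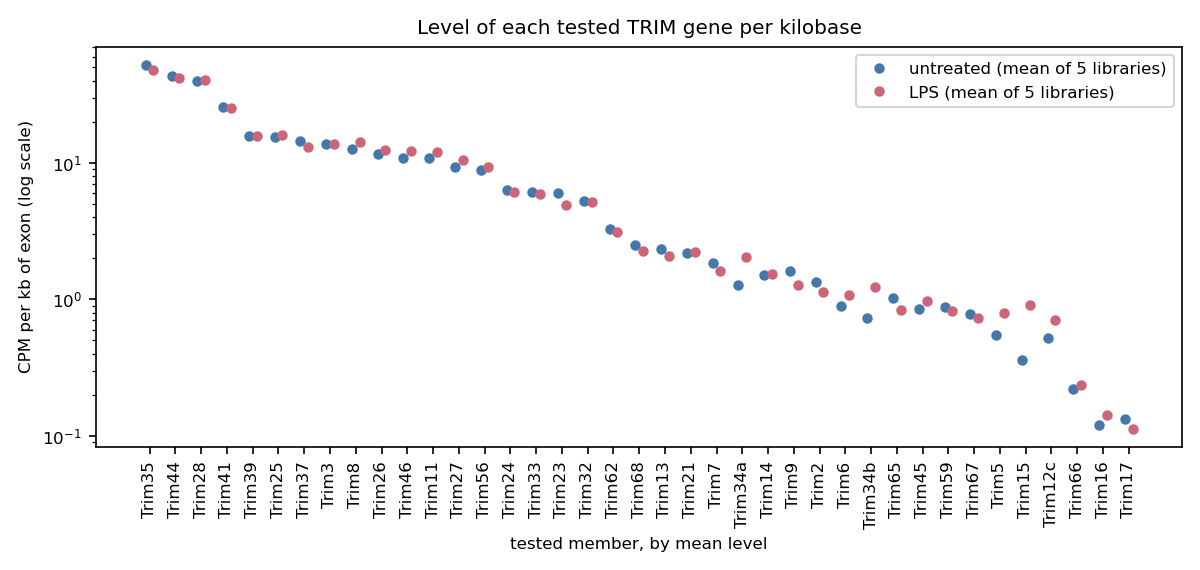
Mean level of each tested member in CPM per kilobase of exon (log axis) in untreated and LPS libraries. Trim35, Trim44 and Trim28 lie above 39 in both groups, while Trim15 lies below 1 and shows the widest gap between the groups.

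The other 29 members did not pass the filter. No count was found in any library for 10 of them, namely Trim30b, Trim30c, the germline and embryo genes Trim42, Trim43b, Trim43c, Trim60, Trim61 and Trim75, and the muscle genes Trim54 and Trim55. For 12 more there were 1 to 11 counts over all libraries. These were Trim12a, Trim30d, Trim43a, Trim69, Trim80, Trim40, Trim29, Trim31, Trim50, Trim52, Trim58 and Trim63. The other 7 had 15 to 69 counts. Over untreated and LPS libraries these summed to 4 and 11 for Trim10, 9 and 29 for Trim30a, 12 and 26 for Trim38, and 47 and 22 for Trim47. Trim36 had 25 and 21, Trim71 had 37 and 32, and Trim72 had 17 and 17. A fit without the filter still left out the 10 members with no count. Of the others, edgeR called 0 in that fit, and 0 had an unadjusted p under 0.05.

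TRIM ligases work with enzymes that activate and carry ubiquitin or its relative ISG15, and on sensors and kinases of innate immunity. A list of 38 such genes was read from the same fit, 35 of which were tested, with 8 called higher and 0 lower by edgeR, against the 2.84% and 0.928% of all genes given above. At an unadjusted p under 0.05, 10 were higher and 1 lower, against 15.3% of all genes in either direction. DESeq2 and limma-voom called 0 lower. The list was chosen with earlier results of these data known, so these counts describe it and are not a test. Its median log2 fold change was 0.06. With the endothelial markers as a covariate, edgeR called 6 of the list in place of 8, without Uba7 and Ifih1.

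Of the 14 genes for transfer and removal of the tags, 5 were called higher, against 2.84% of all genes. All 5 belong to the ISG15 pathway. Isg15, the ubiquitin-like tag itself, rose from 0.716 ± 0.335 to 2.82 ± 0.664 CPM (SD, n = 5 each). On the log2 scale this was 1.98 ± 0.29 (SE), with an edgeR adjusted p of 0.00121. Its activating enzyme Uba7 rose from 41.2 to 58.2 CPM, or 0.50 on the log2 scale (edgeR adjusted p = 0.0176), a call kept in 17 of 21 other settings. It was lost with the endothelial markers as a covariate (adjusted p = 0.108), with the share of counts of the gene ENSMUSG00000119584, which was 0.366% to 0.942% in untreated and 0.227% to 0.427% in LPS libraries, as a covariate (0.291), without untreated 3 (0.0526) and without LPS 9 (0.0557). Its carrier Ube2l6 rose from 14.2 to 29.1 CPM, or 1.03 on the log2 scale (edgeR adjusted p = 0.000102). The ligase Herc6 rose from 11.4 to 17.2 CPM (0.59, edgeR adjusted p = 0.0069), and the protease Usp18, which removes the tag, from 15.5 to 26.9 CPM (0.79, edgeR adjusted p = 4.11e-05).

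The general enzymes that serve the TRIM ligases were not called. Uba1, which activates ubiquitin, had 309.3 and 326.2 CPM, a log2 fold change of 0.08 with an interval of -0.08 to 0.23. Ube2d3, a carrier many TRIM ligases use, had 326.1 and 320.8 CPM, a log2 fold change of -0.02.

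Of the 18 tested partners and targets of TRIM proteins, 3 were called higher, against 2.84% of all genes. Irf7, a transcription factor of the interferon response, rose from 15.7 ± 1.44 to 63.2 ± 7.72 CPM (SD, n = 5 each). On the log2 scale this was 2.01 ± 0.10 (SE), with an edgeR adjusted p of 2.89e-07. Ddx58, which encodes the Trim25 target RIG-I, rose from 33.4 ± 1.33 to 51.1 ± 5.93 CPM, or 0.61 on the log2 scale (edgeR adjusted p = 0.000479). Trim25 itself stood at 0.07 in the same libraries. Ifih1, which encodes the Trim65 target MDA5, rose from 18.1 to 25.8 CPM, or 0.51 on the log2 scale (edgeR adjusted p = 0.0445). This call was kept in 11 of 21 other settings and was lost with the macrophage, endothelial or ENSMUSG00000119584 covariate and without any of untreated 2, 3, 4 or 5 or LPS 6, 7 or 8 (adjusted p up to 0.365 over all settings). Tmem173, which encodes STING, had 25 counts over all untreated and 25 over all LPS libraries, and Cgas had 41 and 27, too few to test. Vcp, the segregase that works after ubiquitination, had 189.5 and 196.1 CPM, a log2 fold change of 0.05.

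Of 4 TRIM-type proteins with other names, 3 were tested and edgeR, DESeq2 and limma-voom called 0, with 0 at an unadjusted p under 0.05. Pml, the organiser of nuclear bodies, had a log2 fold change of -0.10, Mid1 of 0.36 and Mid2 of 0.16. Mefv had 1 count in all. Of the called genes of the list, 7 had a RefSeq promoter, and 3 of these held an ISRE match (Isg15, Ddx58 and Ifih1). A match lay in 0 of the 23 tested and uncalled ones with a promoter, and in 3.44% of all promoters. The list was chosen with earlier results of these data known, so this split is a description and not a test.

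**Figure D4:**
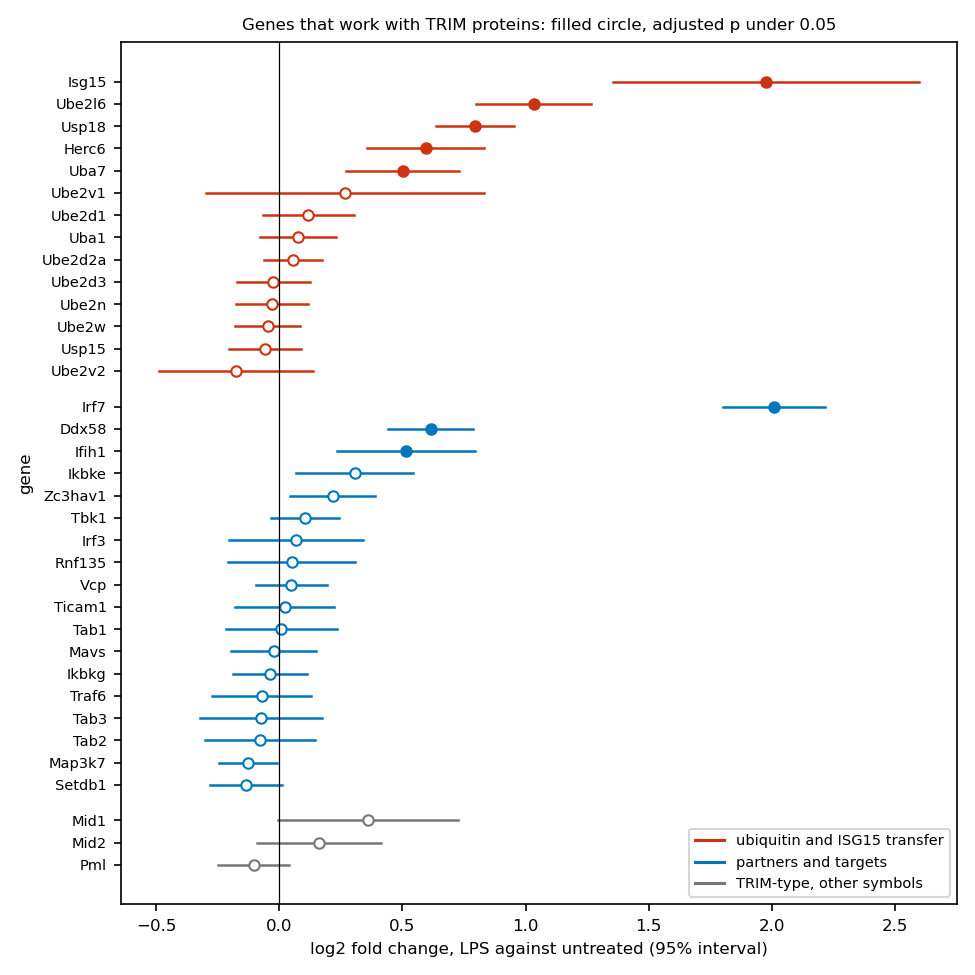
Log2 fold change (LPS over untreated) with 95% intervals of the 35 tested genes that work with TRIM proteins, grouped as transfer enzymes, partners and TRIM-type proteins. Irf7 at 2.01, Isg15 at 1.98 and Ube2l6 at 1.03 stand to the right, and the ubiquitin enzymes Uba1 and Ube2d3 lie near 0.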

How the data were processed

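The authors deposited 1 table of raw counts per library, with whole numbers per Ensembl gene. Their tools were STAR and HTSeq, with FastQC, Trimmomatic, SAMtools and DESeq2, on build GRCm39, per the submitters' processing notes. Tool versions, annotation release and strand setting: not given in the sources used here. The reference genome is not of the NOD strain. Closing rows that name no gene, such as reads outside genes (8.84% to 12.9% of counts), were left out.

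Symbols came from GENCODE M21 and gene name tables (52073 of 56748 identifiers matched), exon lengths and shared 50-base stretches from M21, and promoters from RefSeq, both of build GRCm38. Counts were tested with edgeR 4.0.16 in R 4.3.3 (filterByExpr, minimum count 10 and total 15, TMM, quasi-likelihood F test, no covariate), adjusted by Benjamini-Hochberg over 15942 genes and called under 0.05. In simulated counts of 15942 genes, 200 of them changed, 52.2% of 1.5-fold, 80.6% of 2-fold and 95.5% of 4-fold changes were recovered. There were 13 false calls among the unchanged genes. Each simulated gene was given the typical spread at its level, so recovery in the real counts can differ. An upper limit of 3 counts, summed over a group, covers counting error only. Intervals are 95% and come from the fit.

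The members, lists and roles were chosen with earlier results of these data known. Named members were those called, the 2 most abundant of each role and those with the largest and smallest fold change. Of the other genes, up to 6 called ones with the smallest adjusted p and up to 3 uncalled ones with the highest CPM were named. Trim34b, Trim5, Trim12c, Trim21, Trim14, Trim26, Trim65, Trim23, Trim37, Uba7, Ifih1, Tmem173, Cgas, Mefv, Pml, Mid1 and Mid2 were named after their values were seen.

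Alternatives were other scalings and filters, DESeq2 1.42.0, limma-voom (limma 3.58.1), marker covariates and leaving out each library. A covariate for the share of counts of 1 identifier, 1 surrogate variable (sva 3.50.0) and the sums of near copies were added after seeing the data. A planned comparison of protein sequences was not run, and shared 50-base stretches were used instead.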

Additional observations from a re-analysis of the deposited data

Results flagged for a closer look

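In untreated 5, Trim3 stood at 71.7 CPM, above the other 4 untreated libraries, which lay between 58.9 and 62.5 CPM, a gap of 0.715 of the group's range. Trim44 stood at 217 CPM in the same library, below the other 4, which lay between 246 and 253 CPM, a gap of 0.802 of the range. A group of 5 was marked by the 95% critical value of Dixon's test, and chance marks about 1 in 20 groups. Here 2 of 48 were marked.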

How the results depend on the processing

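Trim15 was called in all but 1 of the settings tried. The number of members called, 1 as reported, was 2 with DESeq2 (Trim34a added), 2 with limma-voom (Trim23 added), 2 with the macrophage covariate (Trim34a added) and 0 with the endothelial covariate. It was 3 with 1 surrogate variable (Trim34a and Trim23 added) and 2 with near copies summed. Leaving out each library gave 1 to 2, the higher without LPS 8. Called lower were 1 with limma-voom and 1 with the surrogate variable. The cause was not tested. Over all genes, 601 were called as reported, 178 with the endothelial covariate, 157 with the share of ENSMUSG00000119584 (1 member), 522 with the macrophage covariate, 579 without LPS 8, 950 with DESeq2, 994 with limma-voom and 1335 with the surrogate variable.

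Log2 fold changes that turned sign were small. Trim14 was -0.041 with limma-voom, -0.090 with the share of ENSMUSG00000119584 as a covariate and -0.018 to 0.079 without each library in turn. Leaving out each library gave -0.023 to 0.066 for Trim21, -0.044 to 0.030 for Trim3, -0.095 to 0.014 for Trim44 and -0.0027 to 0.13 for Trim56. Trim3 was 0.017 with limma-voom and 0.014 with the endothelial covariate, and Trim2 was 0.00031 with the latter. With the share of ENSMUSG00000119584 (0.366% to 0.942% of untreated and 0.227% to 0.427% of LPS counts), Trim26 was -0.013, Trim28 -0.020 and Ube2d3 0.040. Vcp was -0.0017 with limma-voom. Trim15 moved most with that share, to 2.02. The looser motif, with GAA in place of the closing GAAA, lay in 12 of 53 members with a promoter, against 9 for the full motif. By window, the looser motif lay in 19.4% of the members' windows and in 8.56% of all promoters. No paired analysis was run because the labels name no pairs of untreated and LPS libraries. Whether libraries pair by their order within each group was not tested, and the fits hold no term for it. Members under the filter, with at most 69 counts over all libraries, showed no detectable difference at this depth.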
